A study of Mus musculus with 15 samples.

Results

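The comparison described here is the first 2 hours after aldosterone in the mouse heart. It takes the aldosterone arrays at 0.5, 1 and 2 h and sets each against the control array of the same time, 6 of the 15 arrays of the series, with 3 arrays in each group and 3 pairs in all. The arrays were chosen by their labelled treatment and time alone, and all probe sets on them were used. Each array, an Affymetrix mouse expression array with 45101 probe sets, measured total RNA of whole heart frozen in liquid nitrogen. The labels do not give the dose, what the timed controls received, the strain, sex or age of the mice, or whether an array stands for 1 animal or for pooled animals. There is 1 array per arm and time, so the 3 times stand in for replicates, and the spread behind each p-value is that between arrays, part of which may be technical.

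Aldosterone is the adrenal mineralocorticoid. It diffuses into cells and binds the mineralocorticoid receptor (gene Nr3c2), a nuclear receptor that is held by chaperones in the cytosol and acts on DNA elements that it shares with the glucocorticoid receptor (Nr3c1). In the kidney the receptor induces the kinase gene Sgk1 and raises sodium uptake through the epithelial sodium channel. Heart muscle also expresses the receptor, but it has little of the enzyme that inactivates glucocorticoids in the kidney, so that glucocorticoids can occupy the cardiac receptor. Long exposure to aldosterone with salt is known for inflammation and fibrosis of the heart.

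Levels below are log2 signals after quantile normalization, with an offset of 167.8 added to each signal, so that the folds of dim genes are understated. Differences are aldosterone minus control on that scale, and values in a series are in the order 0.5, 1 and 2 h unless stated otherwise. A value after ± is the moderated standard error (SE) of the limma test. It draws on the variance of other probe sets and can be smaller than the spread between the pairs. Tests covered 21296 probe sets, those whose mean reached 526.7, the median of all signals. These probe sets stand for 11227 genes, each read by the probe set with the highest mean. Median signals of the 6 arrays ran from 473 to 657.2 in deposited units.

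The arrays were not alike in RNA quality or in the tissue they carried. Gapdh has control probe sets at its 3′ and 5′ ends, and their ratio rises where the 5′ end is underrepresented in the labelled cRNA. The log2 ratio of 3′ to 5′ signal was -0.17, 0.78 and 0.35 in the control arrays and -0.23, 3.31 and 3.35 in the aldosterone arrays. The arms were thus alike at 0.5 h, and the aldosterone array had a 5.78-fold higher ratio at 1 h and an 8-fold higher one at 2 h. The same ratio for Actb, a second control transcript, differed 1.56-fold at 1 h and 1.34-fold at 2 h in the same direction. The other control transcripts did not follow Gapdh at 2 h, where the log2 ratio of the aldosterone array minus that of the control array was -0.895 for Tfrc and -0.597 for Pcx. At 1 h these differences were 3.34 and 0.91, and at 0.5 h -0.21 and 0.51. The 5′ signal of Tfrc at 1 and 2 h was only 275.3 and 211 units in control and 32.3 and 231.7 units in aldosterone. These lie below the median signal of each array, so the Tfrc ratios are imprecise. The 5′ signal of Pcx was 711.3 and 759.3 units in control and 269.3 and 683.5 units in aldosterone. The signal at the 3′ end of Gapdh stayed between 168673.7 and 213877.1 units on all 6 arrays, while the 5′ signal was 19142.1 and 16483.1 units on the aldosterone arrays of 1 and 2 h against 116908 or more on the other 4. High ratios were not particular to the aldosterone arm of the series, since the control arrays of 4 and 12 h had 3.21 and 3.92.

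Markers of lung epithelium, such as the surfactant protein genes and the club cell secretoglobin Scgb1a1, should be near absent from heart. Sftpc, which encodes a surfactant protein of alveolar type II cells, was at 9.30, 15.23 and 8.53 in control and 9.29, 16.62 and 9.32 in aldosterone. Scgb1a1 was at 7.76, 16.85 and 11.49 in control and 9.40, 17.85 and 7.79 in aldosterone. Both genes were therefore highest on the 1 h arrays. Sftpc was low on the others, while Scgb1a1 was at an intermediate level on the 2 h control array (11.49). The summed signal of the 6 tested lung markers was 187400 units in the control and 435000 units in the aldosterone array at 1 h, against 2054 to 5785 units on the 4 arrays of 0.5 and 2 h.

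Markers of atrial muscle also moved with the arms, and not in 1 direction. Sln, which encodes the atrial calcium pump regulator sarcolipin, was at 11.12, 14.15 and 15.73 in control and 13.96, 15.66 and 14.49 in aldosterone. Nppa, the gene of atrial natriuretic peptide, was at 15.01, 16.64 and 17.67 in control and 17.07, 17.31 and 16.28 in aldosterone, and Myl7, the atrial regulatory myosin light chain gene, at 12.82, 14.93 and 16.79 against 15.13, 16.23 and 15.49. All 8 tested atrial markers were higher with aldosterone at 0.5 h (median difference 1.96) and at 1 h (0.80), and none was higher at 2 h (-1.18). The summed atrial signal was 99920, 260300 and 539900 units in the control arm and 285300, 479900 and 277600 units in the aldosterone arm. Ventricular and shared sarcomere genes did not follow this pattern. The 20 tested sarcomere genes had median differences of 0.03, -0.08 and 0. Their summed deposited signal was 3491000, 3145000 and 2901000 units in control and 3310000, 3176000 and 2967000 units in aldosterone. Myl2, the ventricular light chain gene, was at 18.18, 18.18 and 18.08 in control and 18.06, 18.03 and 18.24 in aldosterone. Myh6, the main myosin heavy chain of the adult mouse heart, lay between 18.05 and 18.28 on all 6 arrays. Both lie near the top of the signal range, where quantile normalization leaves little room for a difference, so their levels say little about ventricular content. Such differences in bulk tissue cannot tell fewer cells of a type from less RNA per cell. The Y-linked genes Eif2s3y (1755.9 to 3128.6 units) and Uty (1575.4 to 2073.1 units) and the X-inactivation transcript Xist (357.4 to 877.2 units) were in the same range on all 6 arrays.

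**Figure D1:**
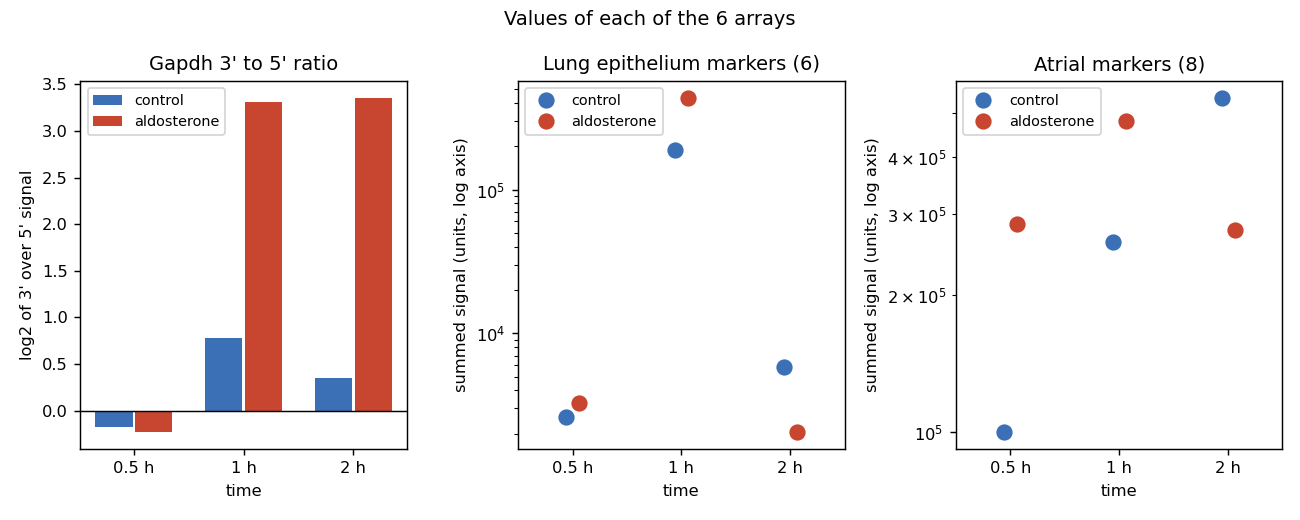
Gapdh 3′ to 5′ log2 ratio (bars, left), summed signal of 6 lung epithelium markers (middle) and of 8 atrial markers (right, both in deposited signal units on a log axis) on each of the 6 arrays, control in blue and aldosterone in red. The ratio is above 3 on the aldosterone arrays of 1 and 2 h, the lung signal is high on both 1 h arrays, and the atrial signal is higher with aldosterone at 0.5 and 1 h and lower at 2 h.

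The first question was whether any gene differed between the arms over the 3 pairs. By limma with time as a block, 0 of 21296 probe sets were called at an adjusted p under 0.05 (0%), and the smallest adjusted p was 0.658. At an unadjusted p under 0.05 there were 1605 probe sets (7.54%). The median standard error of a difference was 0.21, and the 95% interval of 82% of the probe sets held no change as large as 2-fold. The 3 pairs had little in common. Across probe sets, which are not independent replicates, the differences at 0.5 h and at 1 h had a Pearson correlation of 0.00839, those at 0.5 h and 2 h of -0.114, and those at 1 h and 2 h of 0.306. The pairs of 1 and 2 h shared the high Gapdh ratio of the aldosterone array. When the 1 h pair was left out the count was 0, without the 2 h pair 21 (16 higher and 5 lower), and without the 0.5 h pair 429, which are described further on. With the Gapdh ratio as a covariate 21 were called, 7 higher and 14 lower.

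Single pairs held many large differences, with no replicate behind them. At 0.5 h, 565 probe sets were over 2-fold higher with aldosterone (2.65%) and 511 were over 2-fold lower (2.4%). At 1 h, 369 were over 2-fold higher (1.73%) and 655 lower (3.08%), and at 2 h, 334 were higher (1.57%) and 968 lower (4.55%). With the deposited scaling in place of quantile normalization, the share of these differences that were higher at 0.5 h was 40.4% against 52.5%. Of the probe sets past 2-fold in both the 0.5 h and the 1 h pair, 70 moved in the same direction and 70 in opposite directions. The same comparison of 0.5 h and 2 h gave 51 in the same and 112 in opposite directions. The pairs of 1 and 2 h had 223 in the same direction, 204 of them lower, and 68 in opposite directions. The 3, 4 and 5 h pairs of the series had fewer probe sets over 2-fold, 600, 665 and 582, than the 1076, 1024 and 1302 of these pairs.

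**Figure D2:**
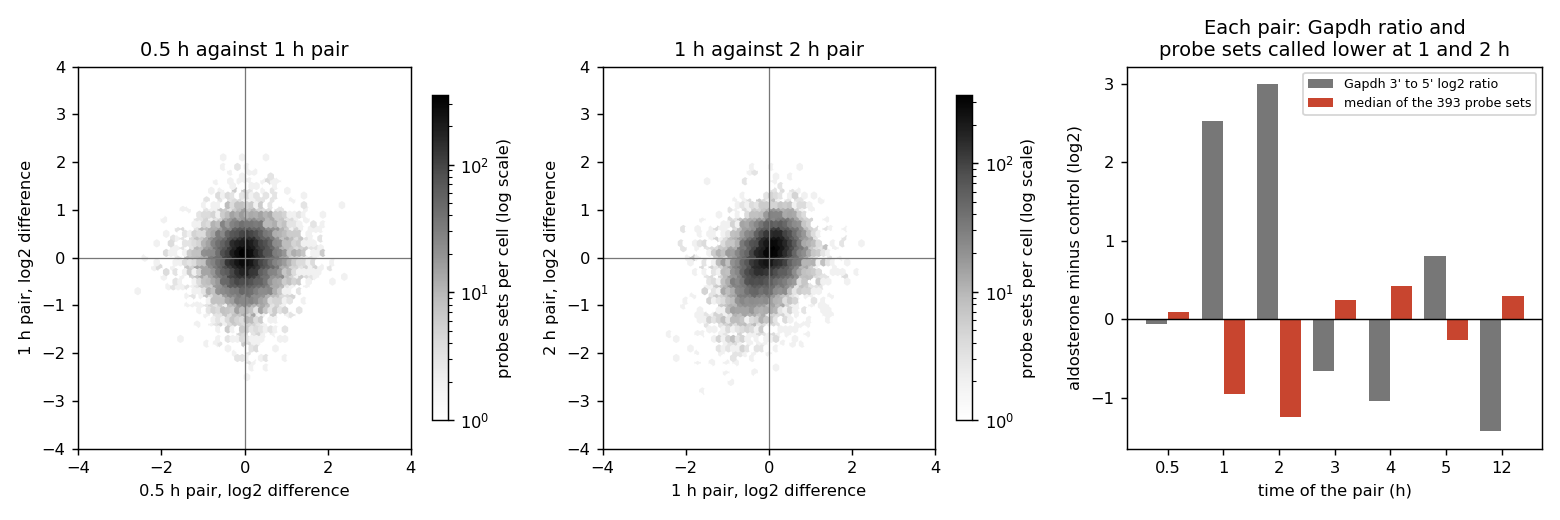
Left and middle, differences (aldosterone minus control, log2) of all 21296 probe sets in 2 pairs plotted against each other, with darker cells holding more probe sets on a log scale. Right, for each of the 7 timed pairs of the series, the arm difference of the Gapdh 3′ to 5′ log2 ratio (grey bars) and the median difference of the 393 probe sets called lower at 1 and 2 h (red bars). The 0.5 h and 1 h pairs share no trend, and the 1 h and 2 h pairs share a tail of lower probe sets. The red and grey bars have opposite signs in each pair, and both are short at 0.5 h.

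The known targets of the corticosteroid receptors were the next question, since Sgk1, Per1, Tsc22d3, Fkbp5 and Zbtb16 respond within hours where the receptors are active. None of the 34 measured targets was called over the 3 pairs. Their median difference was 0.12, with 24 of 34 higher on average, beside a median of 0.04 over all genes, of which 55.7% were higher. By pair the median of the targets was 0.03, 0.14 and 0.09, beside -0.01, 0.03 and 0.08 over all genes. The median was 0.06 without the 2 h pair, and 0.06 when all tested probe sets of a gene were averaged by their median. In all 3 pairs 8 of the 34 targets were higher and 4 were lower. Among all 11227 genes, 2093 were higher in all 3 pairs (18.6%) and 1478 were lower (13.2%).

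Sgk1, the kinase gene named above, was at 13.52, 14.13 and 13.50 in control and 13.54, 13.85 and 13.81 in aldosterone. The arms overlapped, with the highest level on the 1 h control array, and the mean difference was 0.02 ± 0.14 (SE, n = 3 pairs). Per1, a clock gene that glucocorticoids induce, was at 11.53, 11.24 and 11.60 in control and 11.85, 10.84 and 10.26 in aldosterone, so that it was higher at 0.5 h and lower at 1 and 2 h. Tsc22d3, which encodes the glucocorticoid-induced leucine zipper, was higher in each pair, at 12.93, 13.49 and 13.58 against 13.37, 13.79 and 13.73. Its mean difference was 0.29 ± 0.12, the arms overlapped because the controls of 1 and 2 h lay above the aldosterone array of 0.5 h, and its 3 other probe sets ranged from -0.34 to 0.40. Fkbp5, the co-chaperone gene of a feedback loop on the receptors, was at 11.71, 12.25 and 12.60 in control and 11.68, 12.32 and 12.99 in aldosterone. Only its 2 h pair stood apart (0.39), and another probe set of the gene had a mean difference of -0.71.

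Errfi1, which encodes an inhibitor of the EGF receptor, had the highest mean of the targets. It was at 11.45, 12.57 and 12.01 in control and 12.13, 12.98 and 12.54 in aldosterone, a difference of 0.54 ± 0.14 that was positive in each pair, with arms that overlapped. Its other probe set was at 0.08, and limma gave it an adjusted p of 0.658. Map3k6, a stress kinase gene, had differences of 0.47, 0.44 and 0.25. Mt2, a metallothionein gene, had 0.09, 0.49 and 0.46, and Sult1a1, a sulfotransferase gene, had 0.26, 0.37 and 0.33. The cell cycle inhibitor gene Cdkn1a had 0.01, 0.23 and 0.60, and the matrix protease gene Adamts1 had 0.15, 0.15 and 0.41. Each of these genes lay higher in every pair, with a highest mean of 0.38 (Map3k6).

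Targets with lower values were Cdkn1c, Zbtb16, Fkbp4 and Rasd1 in every pair. Cdkn1c, a cell cycle inhibitor gene, was at 11.79, 11.75 and 11.15 in control and 10.89, 11.55 and 10.77 in aldosterone, and the largest gap was at 0.5 h. Zbtb16, a zinc finger gene that glucocorticoids induce in many tissues, was at 13.67, 14.25 and 15.59 in control and 13.56, 13.59 and 14.73 in aldosterone. Its level was highest at 2 h in both arms and lower with aldosterone at 1 and 2 h. Fkbp4, the gene of the FKBP52 co-chaperone, was at 14.10, 13.93 and 13.83 in control, and the aldosterone arrays differed from these by -0.09, -0.77 and -0.86. Zbtb16 and Fkbp4 were also among the probe sets called lower at 1 and 2 h, where the Gapdh ratio was high in the aldosterone arm.

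The receptor genes had no common direction. Nr3c1 was at 13.93, 13.35 and 12.86 in control and 13.68, 13.92 and 13.69 in aldosterone, lower at 0.5 h and higher at 1 and 2 h, with 3 other probe sets from -0.50 to 0.34. Nr3c2 was at 10.72, 10.86 and 10.73 in control and 10.22, 10.91 and 10.96 in aldosterone, with a mean difference of -0.07 ± 0.21. Hsp90aa1, the gene of the inducible Hsp90 that holds the receptors ready for hormone, was higher in each pair by 0.25, 0.27 and 0.42, and its 2 other probe sets had -0.06 and 0.17. Hsd11b1, which encodes the enzyme that regenerates active glucocorticoid, had differences of 0.01, 0.49 and 0.36. Of the 7 measured genes of receptors, steroid conversion and chaperones, 2 were higher (28.6%) and 1 was lower (14.3%) in every pair, beside 18.6% and 13.2% over all genes.

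Sodium transport genes, the classical target set in epithelia, were close to even, with a median of 0.02 over the 8 measured and 1 gene higher in every pair. That gene was Wnk1, a kinase gene of salt transport, at 15.22, 15.10 and 15.12 in control and 15.39, 15.32 and 15.36 in aldosterone. All 3 of its aldosterone values lay above all 3 control values, as for 522 of 11227 genes (4.65%), and all below was seen for 420 (3.74%). The mean difference of Wnk1 was 0.21 ± 0.09, or 1.15-fold, and its other probe set had 0.23. Atp1b1, the beta subunit gene of the sodium pump, had 0.07, -0.02 and -0.10, and Scnn1a, the gene of the alpha subunit of the epithelial sodium channel, had -0.28, 1.02 and 0.53. Scnn1a is also expressed in lung epithelium, and its 1 h pair had unequal lung signal (187400 units in control and 435000 in aldosterone), whose part in the difference was not tested.

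**Figure D3:**
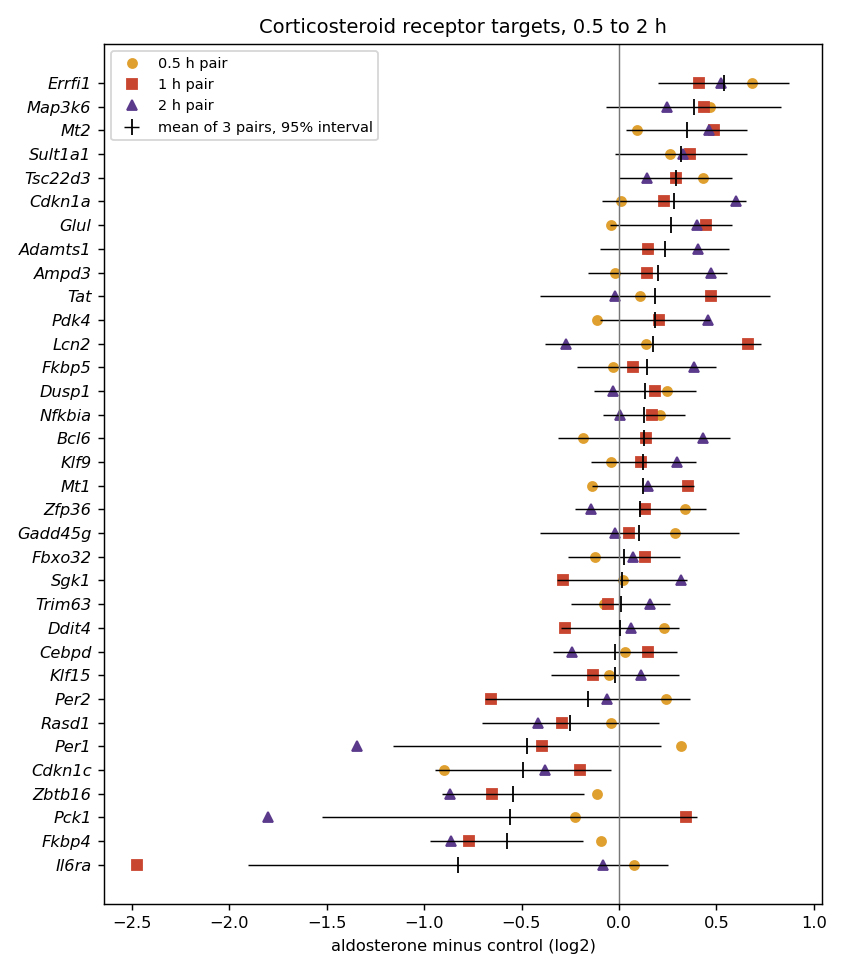
Difference between the arms (aldosterone minus control, log2) for the 34 measured corticosteroid receptor targets in the 0.5 h (circle), 1 h (square) and 2 h (triangle) pair, with the mean of the 3 pairs (tick) and its 95% limma interval (line). Most means lie within 0.5 of 0, Errfi1 is highest at 0.54, and Per1, Pck1 and Il6ra differ widely between pairs.

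Genes with 1 direction in all 3 pairs were then described by size. The differences were over 1.5-fold higher in every pair for 38 probe sets and over 1.5-fold lower in every pair for 45. None was over 2-fold higher in every pair. The 3 that were over 2-fold lower in every pair read Utf1, Hdlbp and a transcript with no symbol. The 6 higher and 6 lower genes with the smallest unadjusted p are described next, and limma gave each of them an adjusted p of 0.658. This choice favours arms that do not overlap. Over all genes the aldosterone arrays lay all above for 4.65% and all below for 3.74%.

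Retnla, which encodes a resistin-like protein secreted by macrophages and by airway epithelium, was at 10.16, 11.65 and 10.98 in control and 11.57, 12.52 and 11.91 in aldosterone. It was 1.07 ± 0.18 higher (SE, n = 3 pairs, 2.1-fold), with each aldosterone array above its own control and the arms overlapping across times. Levels in both arms were highest on the 1 h arrays, which also held the lung markers. Their part in the difference was not tested. Hoxa5, a homeobox gene used in the patterning of the lung and the axial skeleton, was at 11.13, 9.98 and 11.33 in control and 12.08, 11.70 and 12.27 in aldosterone, and the arms did not overlap. The name of its probe set marks probes that may also match other sequences. Gas1, which encodes a membrane co-receptor of hedgehog signalling, was at 11.85, 12.39 and 12.53 in control and 12.58, 13.11 and 13.13 in aldosterone. Its 3 differences were close to each other (0.73, 0.72 and 0.59) and the arms did not overlap, but a second probe set of Gas1 had -0.09. Snrnp27, a gene of the spliceosome, had 0.63, 0.67 and 0.46, with another probe set at 0.08. Bola2, an iron and sulphur cluster gene, had 1.03, 0.66 and 0.93, and 4 other probe sets from -0.01 to 0.89. Mtfr1l, a gene of mitochondrial shape, had 1.12, 0.84 and 0.88, and 2 other probe sets at -0.53 and -0.03.

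Utf1, a chromatin factor gene known from embryonic stem cells, had the smallest p of all. It was at 11.29, 11.55 and 10.39 in control and 9.18, 9.03 and 8.78 in aldosterone, a difference of -2.08 ± 0.26 (4.22-fold) with no overlap. Hdlbp, the gene of the RNA-binding protein vigilin, was at 11.11, 10.55 and 10.56 in control and 9.37, 8.17 and 8.21 in aldosterone, again without overlap. Its 2 other probe sets did not show this, with mean differences of -0.13 and 0.09. The aldosterone values of 8.17 and 8.21 lie near the floor that the offset sets. Clptm1, a transmembrane protein gene, was at 14.39, 13.61 and 13.67 in control and 13.28, 12.87 and 12.38 in aldosterone. Gpat4, which encodes an acyltransferase of glycerolipid synthesis, was at 11.57, 11.59 and 11.63 in control and 10.65, 10.58 and 10.50 in aldosterone. In both genes the arms were apart, and Gpat4 was nearly level over time within each arm. Mapkapk2, a kinase gene of the p38 pathway, was at 14.20, 13.24 and 13.41 in control and 13.66, 12.25 and 12.46 in aldosterone. Hbb-b2, an adult beta globin gene of red blood cells, had -0.68, -0.99 and -0.89, and its other probe set had 0.06. Alas2, the erythroid enzyme gene of haem synthesis, was also lower in each pair, with -0.26, -0.73 and -1.10. The summed signal of the 3 tested red cell markers was lower with aldosterone in each pair, at 15300, 33540 and 29280 units in control and 12560, 19590 and 15070 units in aldosterone. Of the 3 markers 2 were lower in every pair, and 1 was higher with aldosterone at 0.5 h.

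**Figure D4:**
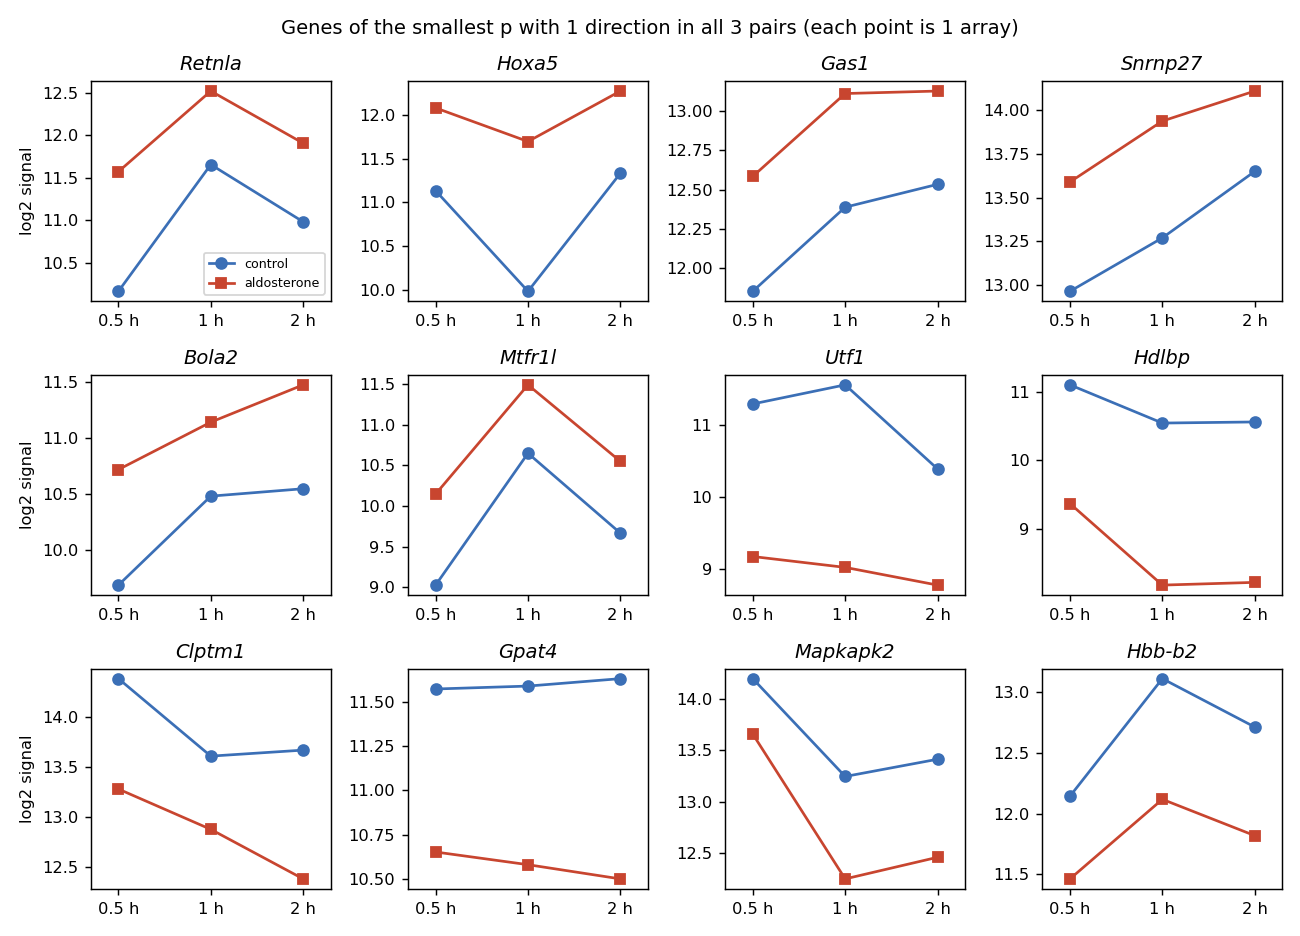
Log2 signal on each of the 6 arrays (control blue, aldosterone red) at 0.5, 1 and 2 h for the 6 higher and 6 lower genes with the smallest unadjusted p, each panel with its own axis. The aldosterone line lies on 1 side of the control line at every time, as the choice requires. The arms do not overlap for Hoxa5, Gas1, Bola2, Utf1, Hdlbp, Clptm1, Gpat4 and Hbb-b2, which the choice by small p favours.

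A gene read by several probe sets offers a check within the array, although its probe sets share the RNA. Of 4501 genes with 2 or more tested probe sets, 131 had all of them higher in all 3 pairs (2.91%) and 71 had all of them lower (1.58%). The 6 higher ones with the largest medians were Bet1, Ccn3, Ets2, Farp2, Tbpl1 and Zfp644. Bet1, a membrane fusion gene of the secretory pathway, had means of 0.80 and 0.77 on its 2 probe sets. Ccn3, which encodes a secreted matrix-associated protein, had 0.56 and 0.71. Zfp644, a zinc finger gene, had 0.34, 0.55 and 0.99 on 3 probe sets. Ets2, a transcription factor gene, had 0.13 and 1.07, so that its brighter probe set differed little.

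The lower ones were Slc2a4, Gys1, Eif5a, Pacs2, Pcbp4 and Mgrn1, and their differences lay mostly at 1 and 2 h. Slc2a4, the gene of the insulin-responsive glucose transporter GLUT4, was read by 2 probe sets of different size of effect. One was at 14.84, 14.21 and 14.26 in control and 14.76, 13.65 and 13.79 in aldosterone. The other was at 14.18, 11.35 and 12.15 in control, with differences of -0.18, -2.12 and -2.84, and it was low on every 1 and 2 h array compared with the 0.5 h arrays. Gys1, the muscle glycogen synthase gene, had mean differences of -0.24 and -1.64 on its 2 probe sets, and Mgrn1, a ubiquitin ligase gene, had -0.28 and -1.29. Eif5a, a translation factor gene, had -0.69 and -1.02, and its 0.5 h differences were -0.14 and -0.16. Pcbp4, an RNA-binding protein gene, had mean differences of -0.63, -0.83 and -0.95 on 3 probe sets, with -0.46, -0.62 and -0.21 at 0.5 h. Pacs2, a sorting protein gene, had -1.20 and -0.51.

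At 1 and 2 h alone limma called 429 probe sets (2.01%), 36 higher and 393 lower, against 3311 at an unadjusted p under 0.05. The call rested on the variance trend with mean signal, since without it 0 were called (2615 at an unadjusted p under 0.05), and without the time block 49 were called. Eef1a2, the elongation factor gene of muscle and neurons, had the smallest p. It was at 17.22, 16.56 and 16.44 in control and 17.08, 14.04 and 13.10 in aldosterone, nearly equal at 0.5 h and far apart later. Its differences were -2.53 at 1 h and -3.34 at 2 h, with a mean of -2.93 ± 0.17 (limma adjusted p = 5.53e-05). This moderated error is smaller than the spread of the 2 pairs. Hspb7, a small heat shock protein gene of heart muscle, was at 16.68, 15.81 and 16.15 in control and 16.81, 13.82 and 13.58 in aldosterone. Psap, the precursor gene of the lysosomal saposins, was at 16.05, 15.41 and 15.64 in control and 16.07, 13.65 and 13.53 in aldosterone, and Map1lc3a, an autophagosome gene, had differences of -1.51 and -2.04 at these times. Over the 3 pairs, a second probe set of Psap had a mean difference of only -0.17 and that of Map1lc3a had -0.29. The 2 other probe sets of Hspb7 had -1.96 and -0.46.

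The lower calls were also read in the other pairs of the series, beside the Gapdh ratio of each pair. The 393 probe sets had a median difference of -0.96 at 1 h and -1.24 at 2 h, the pairs that chose them, where the ratio of the aldosterone array was 2.53 and 3.00 higher on the log2 scale. At 0.5 h their median was 0.09, with 244 higher and 148 lower, beside a ratio difference of -0.06. At 3 h it was 0.25 beside -0.66, at 4 h 0.42 (341 of 393 higher) beside -1.04, and at 12 h 0.30 beside -1.43. At 5 h, where the aldosterone array again had the higher ratio (0.81), it was -0.27 (339 of 393 lower). The median was positive at 3, 4 and 12 h, where the control array had the higher Gapdh ratio, and negative at 1, 2 and 5 h, where the aldosterone array had it. At 0.5 h the Gapdh ratios were close. The Actb ratio had the sign of Gapdh in the pairs from 1 h on. The Tfrc ratio had the opposite sign at 2, 4 and 12 h, and the Pcx ratio at 2, 4 and 5 h. In a fit over all 14 timed arrays, 241 probe sets were called at 1 and 2 h, and 0 were called once the Gapdh ratio was a covariate (919 at an unadjusted p under 0.05). The ratio differed most between the arms at 1 and 2 h, so this fit cannot cleanly separate the ratio from aldosterone. The genes of the lower calls had 442 other tested probe sets, whose median difference over 1 and 2 h was -0.07, with 186 higher and 256 lower. The part of RNA quality in these calls was not tested.

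Few of the higher calls at 1 and 2 h had the same sign at 0.5 h. Of 36, 10 were higher and 26 lower at 0.5 h, with a median of -0.45. Among those with a gene symbol, the smallest p were those of Cox6c, Cryzl1, Jchain and Jpt1. Cox6c, a cytochrome oxidase subunit gene, was at 15.63, 15.46 and 15.21 in control and 15.41, 16.17 and 15.96 in aldosterone on this probe set, while its brighter probe set differed by 0.05, 0.10 and 0.04. Jchain, the joining chain gene of secreted antibodies and thus a plasma cell gene, was at 9.31, 9.48 and 10.31 in control and 8.86, 11.48 and 11.46 in aldosterone. Ighm, the heavy chain gene of IgM, was 2.52 higher in the 1 h pair and 0.38 higher in the 2 h pair. Of the 4 tested genes of the B and T cell list, 1 was higher with aldosterone at 0.5 h, 2 at 1 h and 2 at 2 h.

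Counted per gene at 1 and 2 h, 161 of 11227 genes were called lower (1.43%) and 15 were called higher (0.134%). Of the 363 genes in the gene lists used here, 16 were called lower and 3 higher. Among the 16 were 4 heart muscle genes, namely Des, the gene of the intermediate filament desmin (-1.09), Jph2, which encodes the junction protein between the cell membrane and the calcium store (-0.81 and -1.18 at the 2 times), Tcap, a titin-anchoring gene (-0.64), and Ckm, muscle creatine kinase (-0.50). The other Jph2 probe set had differences of 0.01 at both times. Further ones were Acadvl (-0.69) and Hadha (-0.46) of fatty acid oxidation, Ndufv1 (-0.59) and Uqcrc1 (-0.39) of the respiratory chain, the heat shock gene Hspa1b (-0.85) and Tgfb1 (-1.04), the gene of a profibrotic cytokine. Second probe sets of Des, Jph2 and Tgfb1 had mean differences over the 3 pairs of 0.08, -0.11 and -0.08. At 0.5 h, where the Gapdh ratios were close, 10 of the 16 were lower and 6 higher, with differences from -0.68 for the globin gene Hbb-b2 to 0.27 for C1qa and a median of -0.04. Tgfb1 had -0.44 and Alas2, a heme synthesis gene of red cells, -0.26, while Des had 0.02 and Tcap 0.21. The higher genes were Nr3c1 (0.70), Sftpc (1.09) and Retnla (0.90).

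Genes of the stress of the first hours were described from lists of immediate early, cytokine and chaperone genes. Immediate early genes, whose transcription needs no new protein, were higher with aldosterone at 0.5 h for 20 of 22 (median 0.21), beside 5537 of 11227 genes, and for 14 of 22 at 1 h and 7 of 22 at 2 h. Most of the 0.5 h differences were small: Fos had 0.17, Egr1 0.13, Jun 0.07 and Junb 0.18. The largest was that of Nr4a3, an orphan nuclear receptor gene, at 8.05, 9.20 and 10.28 in control and 10.33, 10.27 and 10.41 in aldosterone. It was low only on the 0.5 and 1 h control arrays. Maff, a small Maf transcription factor gene, was at 8.21, 9.41 and 10.55 in control and 9.53, 9.87 and 10.89 in aldosterone, and Nr4a2 was 1.08 higher at 0.5 h. The 0.5 h control values of Nr4a3 and Maff lie near the floor that the offset sets, each on 1 array. None of the 22 genes was called, and the median over the 3 pairs was 0.08.

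Cytokine and NF-kB genes had a similar order, with medians of 0.34, 0.21 and -0.08 over 18 genes. In every pair 2 were higher (11.1%) and 0 lower, beside 18.6% and 13.2% over all genes. Ccl2, the monocyte attractant gene, was at 8.64, 9.74 and 11.31 in control and 9.98, 10.25 and 11.09 in aldosterone. Its level was highest at 2 h in both arms, and the arms were closest there. Several of these genes differed far more between 0.5 and 2 h than between the arms. Icam1, a leukocyte adhesion gene of endothelium, was at 9.84, 11.74 and 14.19 in control and 10.33, 11.67 and 14.32 in aldosterone. Socs3, an inhibitor gene of cytokine signalling, was at 8.90, 11.21 and 13.10 against 9.19, 11.40 and 13.05, Vcam1 at 10.51, 11.67 and 13.97 against 10.71, 11.63 and 13.70, and Selp, the P-selectin gene, at 12.10 and 12.12 at 2 h after 8.09 and 8.08 at 0.5 h. These levels are given without a test of time, because each time lies on 1 scan day with 1 array per arm.

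Acute phase and metallothionein genes (10 measured, median 0.14) split by time, at 0.06, 0.42 and -0.14. Hp, the haptoglobin gene, was at 8.82, 11.28 and 12.60 in control and 8.91, 12.68 and 10.87 in aldosterone. Interferon response genes had 0.09, 0.23 and -0.30 over 15 genes. In every pair 2 were higher (13.3%) and 3 lower (20%), beside 18.6% and 13.2% over all genes. Gbp2, a guanylate-binding protein gene, had 0.49, 0.69 and 0.19, and Rsad2, the viperin gene, had -0.16, -0.53 and -0.30. Cytosolic chaperones had a median of -0.01 over 17 genes, with Hsph1 higher in each pair (0.24, 0.34 and 0.27) and Hspa1b lower (-0.11, -0.94 and -0.76). Unfolded protein response genes had a median of 0.03 over 16, with 5 higher and 0 lower in every pair, among them the endoplasmic reticulum chaperone genes Dnajb9 (0.16, 0.18 and 0.56), Dnajc3 (0.41, 0.12 and 0.66) and Pdia4 (1.01, 0.40 and 0.16).

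Genes linked to mineralocorticoid-driven fibrosis had medians of 0.14, 0.31 and -0.16 over 19 genes. In every pair 3 were higher (15.8%) and 1 lower (5.26%), beside 18.6% and 13.2% over all genes. The 1 lower gene was Tgfb1, at 12.26, 11.40 and 11.26 in control and 11.82, 10.25 and 10.32 in aldosterone. The 3 higher ones were Adamts1, Cybb, an oxidase subunit gene of phagocytes (0.25, 0.29 and 0.34), and the endothelin receptor gene Ednrb (0.25, 0.30 and 0.15). Collagens and other matrix genes had a median of 0.14 over 21, with 6 higher (28.6%) and 1 lower (4.76%) in every pair. Postn, the periostin gene of activated fibroblasts, was at 11.47, 12.25 and 12.04 in control and 11.93, 12.88 and 12.57 in aldosterone. Its difference was 0.54 ± 0.14, positive in each pair, and the arms overlapped. Col1a1, the gene of the main fibrillar collagen, had -0.45, 1.07 and -0.78, so that no direction held.

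Contractile and metabolic genes, the bulk of the heart's message, were even between the arms in their medians. Sarcomere genes had -0.01 over 20 genes, hypertrophy and stretch genes 0.02 over 12, calcium cycling and ion channel genes 0.01 over 13, oxidative phosphorylation subunits 0.02 over 27 and fatty acid oxidation genes 0.02 over 18. Among oxidative phosphorylation subunits 8 were higher (29.6%) and 4 lower (14.8%) in every pair, beside 18.6% and 13.2% over all genes. Ndufs4, a complex I subunit gene, had 0.04, 0.28 and 0.48, and Cyc1, of complex III, had -0.12, -0.39 and -0.21. Cpt1a, which encodes a carnitine palmitoyltransferase that admits fatty acids to mitochondria, was higher in each pair by 0.36, 0.42 and 0.63. Its other probe set had 0.30. The arms did not overlap, with aldosterone all above as for 4.65% of all genes. Hypertrophy genes had no member with 1 direction in every pair. Nppb, the B-type natriuretic peptide gene, was at 15.90, 15.74 and 15.16 in control and 15.95, 15.64 and 15.76 in aldosterone. Kcnd2, a potassium channel gene, had 0.21, 0.25 and 0.45.

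Clock genes had a median of -0.01 over 18. In every pair 2 were higher (11.1%) and 3 lower (16.7%), beside 18.6% and 13.2% over all genes. Nfil3, a repressor gene of the clock output, was at 11.30, 11.07 and 11.38 in control and 10.55, 10.30 and 10.83 in aldosterone. The arms did not overlap, with aldosterone all below as for 3.74% of all genes. Nr1d2, the gene of a clock nuclear receptor, had 0.09, 0.20 and 0.47. The list of ribosomal protein genes, which held 1 mitochondrial gene (Mrpl23), had a median of 0.04 over 18. In every pair 6 were higher (33.3%) and 5 lower (27.8%). Rps6 had the largest difference among them, 0.93, 0.64 and 0.76, on a probe set far dimmer than those of the other ribosomal genes (9.87 to 11.15).

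Markers of other cells gave the following values. Macrophage markers had a median of 0.21 over 13. In every pair 8 were higher (61.5%) and 0 lower, beside 18.6% and 13.2% over all genes. They summed to 52420, 84860 and 64440 units in control and 67300, 136500 and 69850 units in aldosterone. Lyz2, the lysozyme gene of macrophages and also of lung, was at 13.54, 14.63 and 13.81 in control and 13.92, 15.52 and 13.86 in aldosterone, highest on the 1 h arrays that held the lung markers. Adgre1, a surface receptor gene of macrophages, was at 11.37, 10.95 and 11.44 in control and 11.71, 11.73 and 11.54 in aldosterone. The arms did not overlap, as for the 4.65% of all genes with aldosterone all above. In contrast C1qa, a complement gene of macrophages, had differences of -0.87 at 1 h and -2.09 at 2 h, and was among the calls of those times. S100a9, a calprotectin gene of neutrophils, was at 10.75, 12.91 and 11.39 in control and 11.46, 14.56 and 11.72 in aldosterone. It was higher with aldosterone in each pair by 0.72, 1.65 and 0.33, as was S100a8 by 0.54, 1.37 and 0.22, while Csf3r, the receptor gene of the neutrophil growth factor, was lower in each pair (-0.37, -0.08 and -0.92). The part of blood and lung content in these values was not tested.

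Endothelial markers had a median of -0.13 over 10. In every pair 0 were higher and 2 lower (20%), beside 18.6% and 13.2% over all genes. The 2 were Cldn5, a tight junction gene (-0.26, -0.24 and -0.69), and the receptor gene Tie1 (-0.12, -0.50 and -0.72). Pecam1, which encodes CD31, had 0.14, 0.01 and -0.42. Smooth muscle and pericyte markers had a median of 0.11 over 9, with 3 higher and 0 lower in every pair, skeletal muscle markers -0.20 over 4, fat markers -0.03 over 6, mesothelial markers 0.21 over 6, B and T cell markers 0.13 over 4 and lung markers 0.31 over 6. Themis, the only tested thymus marker, had -0.24.

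**Figure D5:**
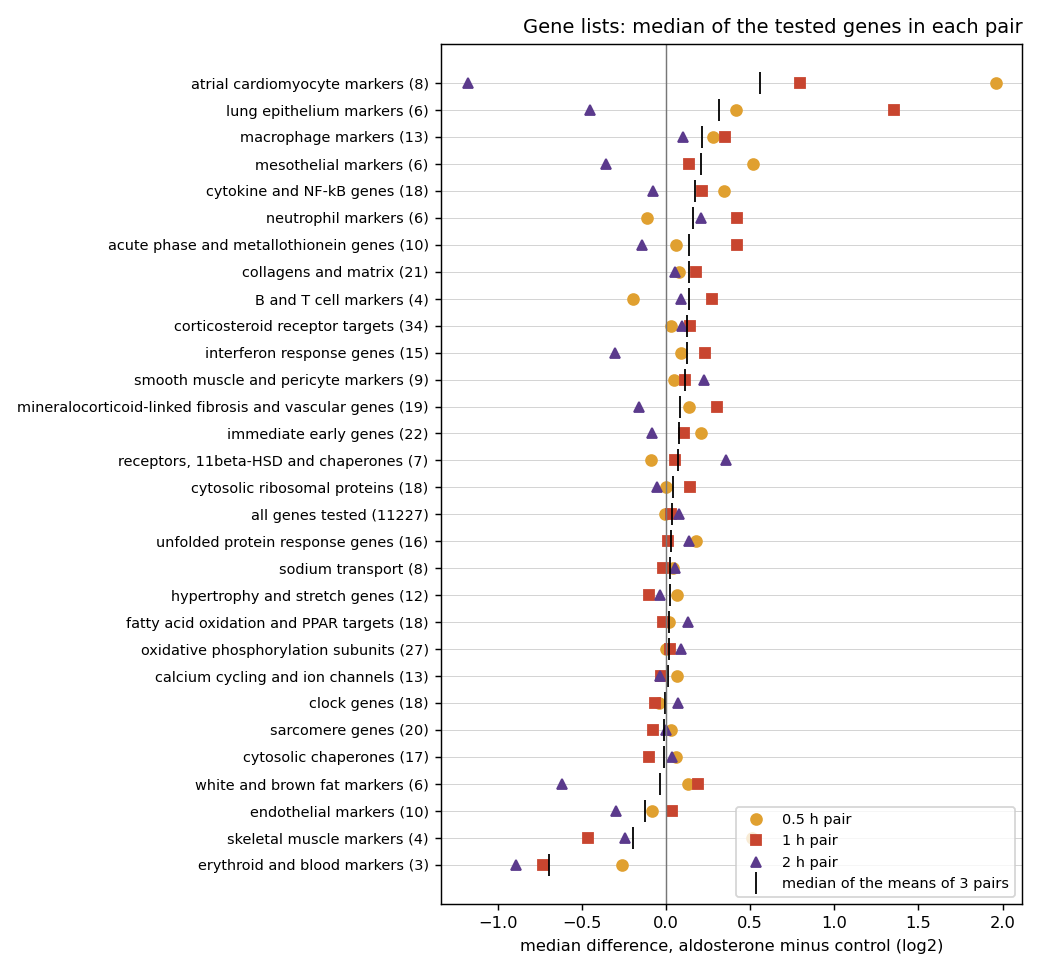
Median difference (aldosterone minus control, log2) of the tested genes of each list in the 0.5 h (circle), 1 h (square) and 2 h (triangle) pair, with the median of the 3-pair means (tick) and the number of tested genes in parentheses. The medians of the atrial (1.96 to -1.18) and lung markers (1.35 to -0.45) spread most between pairs, while contractile and mitochondrial lists stay near the values of all 11227 genes.

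Looked at alone, each pair had genes whose probe sets all differed over 2-fold in the same direction. At 0.5 h these were 4 higher and 2 lower genes of the 4501 with several probe sets. Dkk3, an atrial marker that encodes a secreted Wnt modulator, was at 9.88 in control and 11.45 in aldosterone on its brighter probe set, and Car3, a carbonic anhydrase gene of fat, at 9.87 and 11.06. Champ1, a chromosome alignment gene, and Rai14, an actin-binding protein gene, were the other higher genes. Igf2bp3, an mRNA-binding protein gene, had differences of -1.26 and -1.14 on 2 probe sets, and the locus Orly had -1.55 to -2.23 on 3. Neither kept the direction at 2 h, where Igf2bp3 had 0.70 and 0.42 on the same probe sets.

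At 1 h 3 genes were higher and 5 lower in this way. Dkk3 was again higher (by 1.09 and 1.48), with the lipid synthesis gene Acly (1.04 to 1.45 on 3 probe sets) and the trypsinogen gene Prss2. Ppp5c, a phosphatase gene of the Hsp90 machinery, had differences of -1.08 to -2.14 on 3 probe sets, and the others were Slc25a25, Zbtb7b, Enho and Nfatc4. At 2 h no gene was higher and 15 were lower. These included Dkk3 and Car3, which had been higher at 0.5 h, and Scd1, the fatty acid desaturase gene of fat and liver. Scd1 was at 11.94, 16.32 and 12.72 in aldosterone, with differences from control of 0.94, 1.17 and -3.97. Adipoq, the adipocyte hormone gene, was at 8.38, 11.63 and 13.12 in control and 9.76, 12.98 and 11.50 in aldosterone. Of the 6 tested markers of the fat list, 3 were higher with aldosterone at 0.5 h, 3 at 1 h and 1 at 2 h. Csrp1, a smooth muscle LIM protein gene, had differences of -2.99 and -1.26 on 2 probe sets. The part of tissue content in these values was not tested.

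Last, the early difference was set against that of 3 to 5 h, the next 3 pairs of the series. For the difference of the 2 windows limma called 0 of 21296 probe sets (0%), with 1434 at an unadjusted p under 0.05 and a smallest adjusted p of 0.119. Without the 0.5 h pair 37 were called, 33 of them lower at the early times. At 3 to 5 h alone 0 were called, with 980 at an unadjusted p under 0.05. Yif1a, a gene of transport between endoplasmic reticulum and Golgi, had the smallest p of the difference. Its differences were 0.57, 0.55 and 0.57 at 0.5, 1 and 2 h and -1.01, -1.03 and -1.22 at 3, 4 and 5 h, but its 2 other probe sets had early means of -0.23 and -0.08. Hdlbp was lower at the early times and 0.56, 1.56 and 0.29 higher at the later ones. Scand1, a SCAN domain gene, had -0.38, -0.69 and -0.78 early and 1.23, 1.38 and 0.53 late. Hspg2, the perlecan gene of basement membranes, had -0.60, -1.78 and -0.97 and then 0.70, 1.30 and 0.74 on 1 probe set, while its brighter probe set had an early mean of -0.18. Retnla had 0.61, 0.07 and 0.13 at the later times, and Utf1 -2.03, 1.72 and 0.03. The median of the corticosteroid targets at 3 to 5 h was 0.02.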

How the data were processed

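The deposited values are linear signal intensities per probe set, made by the authors with GCOS 1.2 per the submitters' processing notes; every array has a 2% trimmed mean of 1500. Per the labels' protocols, heart RNA was extracted with Trizol and labelled as biotinylated cRNA. The other deposited files, run settings of each array, gave scan day, chip lot and station; both arms of each of the 3 pairs shared all of these, so the time block absorbs them.

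An offset of 167.8 (the 25th percentile over the arrays) was added before log2, and the values were quantile-normalized over 15 arrays, whose medians differed up to 1.79-fold. The filter on mean signal left 21296 probe sets, with 64 control probe sets set aside. Symbols came from the platform annotation (1 symbol for 34958 probe sets, several for 932, none for 9211). Sequences were not used.

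limma 3.58.1 in R 4.3.3 (data.table version 1.17.8; figures by matplotlib 3.10.9) gave moderated two-sided tests with a variance trend and Benjamini-Hochberg adjustment over all tested probe sets. The main fit took the 6 arrays with time as a block, since labels pair the arms by time; the steps were tested on simulated data. An exact sign-flip test on 3 pairs cannot go below p = 0.25, so none was used. The 30 gene lists held 510 pairs of list and gene, of which 455 matched a symbol and 389 were tested. Genes were named by rule: smallest p with 1 direction in all 3 pairs, agreement of all probe sets, smallest p at 1 and 2 h and for the early minus later difference, agreement over 2-fold in single pairs, list members with the largest means, and all receptor targets and tissue markers. Other genes named within lists, such as Fos, Jun, Icam1 or Ndufs4, were chosen after their values were seen. The comparison, lists and rules were chosen with earlier results of these data known. Alternatives changed the offset, scaling, filter, variance model, array weights, block, covariate and arrays used. The number of arrays limits the precision.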

Additional observations from a re-analysis of the deposited data

Results flagged for a closer look

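For 13 of 231 named probe sets the arms differed in 1 direction in all of the 0.5, 1 and 2 h pairs and in the opposite direction in all of the 3, 4 and 5 h pairs. The same held for 738 of all 21296 probe sets (3.47%). Some of the named probe sets had been chosen by a shared direction in the early pairs. Others had been chosen by a small limma p of the early minus later difference. That choice raises their count, so it cannot be set against the share over all probe sets. The opposite directions are a count of signs; limma's test of the early minus later difference gave none of the 13 an adjusted p under 0.05. The lower early values were those of Hdlbp (early minus later difference -2.96), Hspg2 on 1 probe set (-2.03), Scand1 (-1.66), Hspa1b on 1 probe set (-1.52), Ppp5c on 1 probe set (-1.30), Alas2 (-1.17), Pcbp4 on 1 probe set (-1.16) and Slc2a4 on its brighter probe set (-0.54). The higher early values were those of the sarcomere gene Nebl (0.52), the potassium channel gene Kcnd2 (0.54), Mtfr1l (1.27), the autophagy gene Atg12 (1.63) and Yif1a (1.65, the smallest limma adjusted p of 0.119). The Gapdh 3′ to 5′ log2 ratio differed between the arms by -0.06, 2.53 and 3.00 in the early pairs and by -0.66, -1.04 and 0.81 in the later ones, and its part in these values was not tested.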

How the results depend on the processing

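The count of 0 probe sets at 0.5 to 2 h stayed at 0 with the deposited scaling, other offsets and filters, no variance trend, array weights, all 14 timed arrays and no replicate block (the pairing by time left out). With the Gapdh covariate 21 were called, and 0 to 429 with 1 pair left out in turn. At 1 and 2 h the 429 calls became 691 with the deposited scaling, 275 with no filter, 0 with no variance trend, 49 with no replicate block, 241 with all 14 timed arrays and 0 with these and the Gapdh covariate, the last 2 chosen after seeing the data. The Gapdh covariate on the 4 arrays of 1 and 2 h alone could not be fitted. The early minus later count was 0 in 14 of 15 alternatives and 0 to 37 with 1 pair left out. The median of the corticosteroid targets, 0.12, was 0.0605 over all tested probe sets of a gene and 0.0607 to 0.108 with 1 pair left out. Probe sets over 2-fold at 0.5 and 1 h were 1646 and 1542 with an offset of 16; at 0.5, 1 and 2 h they were 412, 442 and 663 with an offset of 500, 4893, 4945 and 5069 with no filter, and 143, 237 and 437 with a stricter filter. The share of them that was higher at 1 and 2 h, 36% and 25.7%, was 48.5% and 43.7% with no filter, and 12.4% at 2 h with the stricter filter. Differences that turned sign were those of Pacs2 at 0.5 to 2 h with the covariate (0.0587) and, at 1 and 2 h with 14 arrays and the covariate, Eef1a2 (0.35), Hspb7 (1.06) and Psap (0.24); the cause was not tested. Dim probe sets are limited by the offset, and 3 pairs limit all of the above.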
